A study of Mus musculus with 2 samples.

Results

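The genes described here encode the enzymes that make, use and recycle glutathione, the peroxiredoxins and thioredoxins, and targets of the transcription factor NRF2. They were picked out by gene name: glutathione transferases, glutathione peroxidases and peroxiredoxins by the family prefix in the array annotation, and 15 further genes by symbol. The choice gave 55 genes of 22801 named genes on the array, read by 73 probes on 100 spots. Of the 55 genes, 42 were measured, meaning that the gene's brightest probe was well above background, by the scanner's own flag, on at least 1 array.

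Gene expression was compared between RAW264.7 cells with a Lamtor1 knockdown and control RAW264.7 cells, with 1 array per group. RAW264.7 is a mouse macrophage-like cell line, and both populations were grown in DMEM with serum. The knockdown cells carried lentiviral shRNA from a mixture of vectors against Lamtor1 and then went through limiting dilution. The labels print this same protocol for both samples, and neither the agent given to the control cells nor whether either population is a single clone is given in the sources used here. Differences between clones and an effect of the knockdown therefore cannot be told apart. Lamtor1 anchors Ragulator in the lysosomal membrane, and the Rag GTPases bind Ragulator when they bring mTORC1 there. The series was made to examine the activity of the transcription factor TFEB in cells without Ragulator.

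Glutathione is a small peptide that carries reducing power in the cell. It is built by glutamate-cysteine ligase and glutathione synthetase, joined to reactive compounds by glutathione transferases, spent on peroxides by glutathione peroxidases, and regenerated with NADPH by glutathione reductase. Peroxiredoxins remove hydrogen peroxide with electrons from thioredoxin, which thioredoxin reductase keeps reduced. KEAP1 holds NRF2 at a low level until oxidants or electrophiles modify it, and NRF2 then switches on many genes of both systems, which macrophages use against the oxidants they release.

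The targeted gene was examined first. Lamtor1 had a level of -0.43 on the knockdown array, against 4.10 on the control array, where a level is the log2 signal minus the log2 of that array's own 75th percentile. This is 23.1-fold lower, or 4.34% of the control signal. The 75th percentile was an intensity of 1255 on the knockdown array and 1172 on the control array. Of 43020 spots that were not controls, 22745 (52.9%) were well above background on the knockdown array and 22929 (53.3%) on the control array. Repeated spots of 1 probe give the technical spread within the arrays. For 216 such probes, well above background on both, the SD of the spot-by-spot log2 differences had a median of 0.0440. With 1 array per group no difference has a replicate check and none was tested, so each one describes these arrays.

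All 12 macrophage markers examined were measured, with a median log2 difference of -0.07. Cd68 was 2.33-fold higher and the macrophage surface marker Adgre1 was 2.95-fold lower in the knockdown. None of 5 epithelial and 4 hepatocyte markers was measured on either array. Of the fibroblast markers 1 of 6 was measured (Col1a2), of the T cell markers 2 of 5 (Cd3e and Lck), and of the B cell markers 1 of 4 (Cd79b, on the control array only). In RNA from a whole culture, fewer cells that express a gene and less RNA per cell cannot be told apart.

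Of the 10 members that differed by at least 2-fold, 9 were glutathione transferases. Of the 42 measured members, 7 (16.7%) were higher in the knockdown by 2-fold or more, beside 9.0% of all 13773 measured genes. Another 3 (7.14%) were at least 2-fold lower, beside 8.35% of all measured genes. Of these 10 members, Gsta3, Gpx8 and Gstm6 were measured only through the knockdown array and Gstk1 only through the control array. Among the 38 members above background on both arrays, 4 (10.5%) were higher and 2 (5.26%) lower, beside 6.31% higher and 5.52% lower of 12565 such genes. The other 32 members (76.2%) differed by less than 2-fold. The median log2 difference, knockdown minus control, was 0.03 over the members and -0.05 over all measured genes (0.0417 with median scaling). Above 0 lay 24 members (57.1%), beside 45.7% of all measured genes. Among the 17 measured glutathione transferases, 6 were higher and 3 lower past 2-fold. Among the 25 measured members that are not transferases, 1 was higher (Gpx8) and 0 were lower, and the other 24 lay within 2-fold. The plot of the signals on both arrays shows each measured member, and the widest gaps in it are those of Gsta3, Gstm5, Gstp1 and Gstp2.

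**Figure D1:**
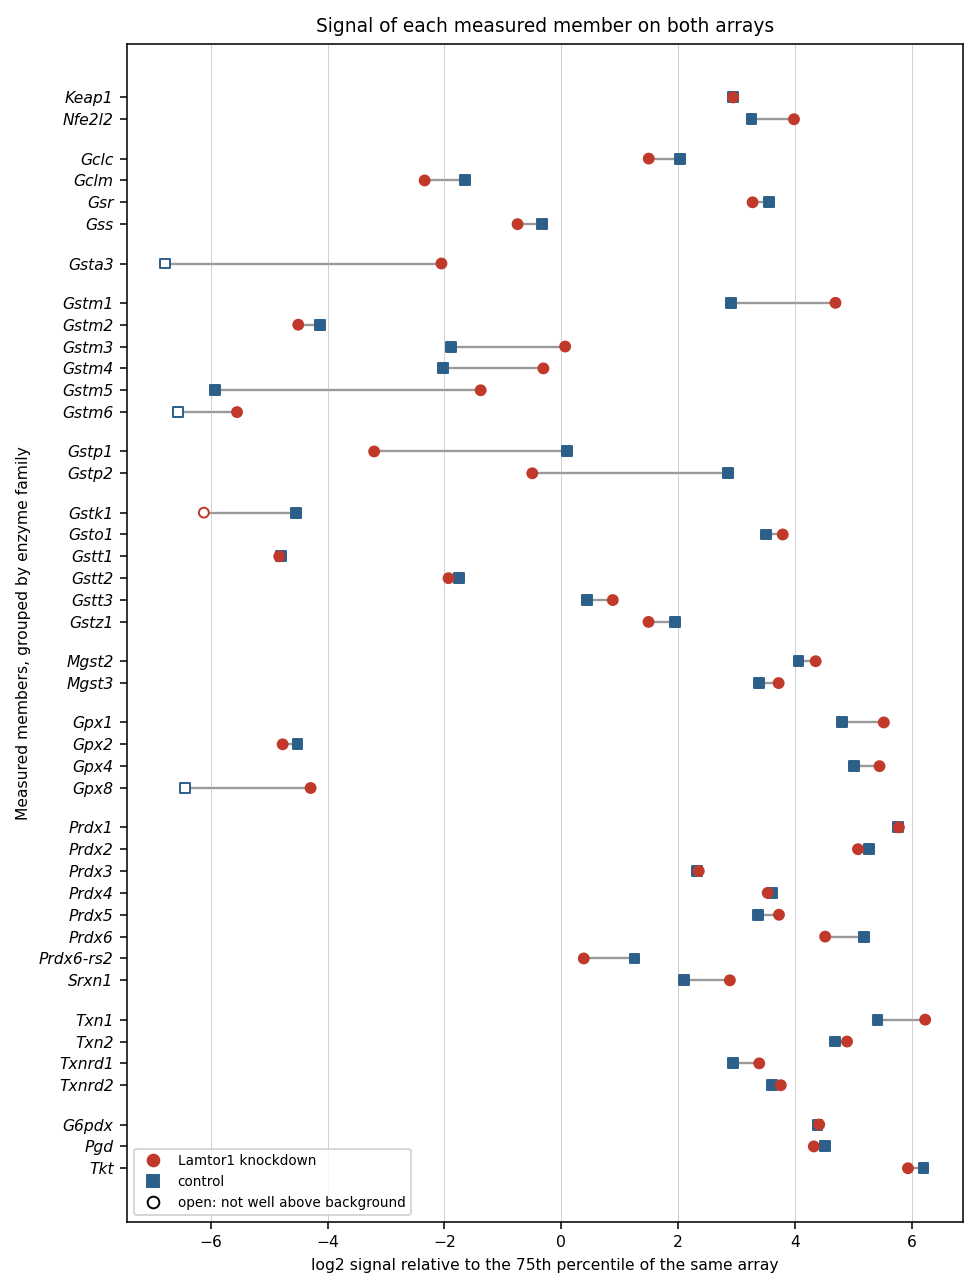
Log2 signal of the 42 measured members scaled to the 75th percentile of its array, with knockdown as circles and control as squares, grouped by family. Open symbols are not well above background. Gsta3 and Gstm5 lie far higher in the knockdown and Gstp1 and Gstp2 far lower, while most other pairs lie within 1 log2 unit. Levels of different genes come from different probes and are not comparable with each other.

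The regulators gave a modest difference in the factor and none of that size in its inhibitor. Nfe2l2, which encodes NRF2, had a level of 3.98 in the knockdown and 3.26 in the control, which is 1.66-fold higher. Keap1, the adaptor that brings NRF2 to a ubiquitin ligase, had 2.94 in the knockdown and 2.93 in the control. The Keap1 difference of 0.01 lay within the spread of repeated spots, and it changed sign under at least 1 other way of processing the arrays.

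All 4 genes of glutathione synthesis and recycling were lower in the knockdown, each by less than 2-fold, with a median log2 difference of -0.48. Gclc, the catalytic subunit of glutamate-cysteine ligase, had a level of 1.50 in the knockdown and 2.03 in the control (1.45-fold lower). Gclm, the modifier subunit of the same enzyme, had -2.34 in the knockdown and -1.64 in the control (1.62-fold lower). Glutathione synthetase, Gss, had -0.75 in the knockdown and -0.32 in the control (1.34-fold lower). The direction of these genes was kept in all 9 other ways of processing the same arrays, which does not bear on the spread between cultures. Glutathione reductase, Gsr, which regenerates glutathione with NADPH, was 1.22-fold lower, and both of its probes lay close together at log2 differences of -0.30 and -0.28.

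Of the 4 members in the alpha class of glutathione transferases 1 was measured, Gsta3, which was higher in the knockdown. It was read by a pair of probes on chromosome 1, at chr1:21255043-21255102 and chr1:21255189-21255248 (mm9, plus strand). The first had a level of -2.05 in the knockdown and -6.78 in the control, and the second an intensity of 573 in the knockdown and 3.97 in the control. Neither probe was well above background on the control array, so the fold is a lower bound: at least 15.1-fold higher by the first probe and at least 28.6-fold by the second. These bounds hold for the processed intensity, since with the normexp background correction the first probe gave 4.82-fold and the second 9.60-fold. That correction was run with an offset of 50 added to every signal, which by itself shrinks the fold of dim probes. Gsta1, Gsta2 and Gsta4, of the same class, were not well above background on either array.

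The mu class lies in 1 cluster on mouse chromosome 3, and most of its measured members were higher in the knockdown. The probes of the cluster span chr3:107701101-107846847 (mm9). Of 7 members 6 were measured, and the median log2 difference was 1.75. At least 2-fold higher were 5 of them, of which Gstm6 was measured only through the knockdown array. Gstm5 had an intensity of 482 in the knockdown and 19.2 in the control, which is 23.5-fold higher, or 6.84-fold with the normexp correction. Its control level of -5.93 is close to -5.97, the lowest level of any probe well above background on that array.

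The other mu members that passed 2-fold were read with differing certainty. Gstm1 had a level of 4.69 in the knockdown and 2.90 in the control by its brighter probe (3.46-fold higher). The array annotation places that probe on chromosome 5, at chr5:117082490-117082549. The other Gstm1 probe, inside the cluster at chr3:107815595-107815654, gave 2.23 in the knockdown and 0.39 in the control (3.58-fold higher). The 2 probes thus differed by 0.05 in log2. Gstm3 had 0.07 in the knockdown and -1.89 in the control by 1 probe (3.88-fold higher). Its other probe was not well above background on either array and had a log2 difference of -1.55. Gstm4 had -0.31 in the knockdown and -2.02 in the control by its brighter probe (3.28-fold higher), and 1.31-fold higher by the other, the widest gap among the 9 members that have more than 1 probe above background on both arrays. Gstm6 passed 2-fold only by its plain difference of 1.01: its control signal was not above background, the bound is at least 1.34-fold, and its other 2 probes were not above background on either array.

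Gstm2 differed from its neighbours in the cluster. Its level was -4.50 in the knockdown and -4.13 in the control, a log2 difference of -0.37, and a second probe gave -0.28. Gstm7 was not well above background by either of its probes. The mu genes are close copies of each other, so the probes were compared by sequence. The probes of Gstm3, Gstm6 and Gstm7 printed here (mm9), as given in the array files, overlap each other in sequence and show how far the paralogs differ under a 60-base probe. Capitals mark bases that differ from the Gstm3 probe where the probes overlap without gaps.
Gstm3, chr3:107769290-107770549, minus strand: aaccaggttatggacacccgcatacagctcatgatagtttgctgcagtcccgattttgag
Gstm6, chr3:107745052-107745111, minus strand: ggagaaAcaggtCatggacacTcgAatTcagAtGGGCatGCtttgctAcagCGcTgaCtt
Gstm7, chr3:107732073-107733247, minus strand: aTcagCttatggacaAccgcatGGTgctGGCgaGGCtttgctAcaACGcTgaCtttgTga
The Gstm6 probe matched the Gstm3 probe at 39 of 56 overlapping bases and the Gstm7 probe at 40 of 59. The brighter Gstm1 probe matched the dark Gstm3 probe at 25 of 27 overlapping bases. How much of a probe's signal comes from a paralog was not tested, so the values of single mu genes are uncertain in that respect.

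Both pi-class members were lower in the knockdown by every probe. They lie next to each other on chromosome 19, with probes spanning chr19:4035908-4041042 (mm9, minus strand). Gstp1 had an intensity of 136 in the knockdown and 1250 in the control (9.83-fold lower), and its second probe gave 9.57-fold lower. Gstp2 had 890 in the knockdown and 8466 in the control (10.2-fold lower), and its second probe gave 8.79-fold lower. All 4 probes were well above background on both arrays, with log2 differences between -3.35 and -3.14. With the normexp correction the fold was 7.09 and 5.40 for the Gstp1 probes, and 9.38 and 6.14 for the Gstp2 probes. The pi enzymes are near copies, which the Gstp1 probe and the second Gstp2 probe show, with capitals at bases of the Gstp2 probe that differ from the Gstp1 probe where they overlap.
Gstp1, chr19:4035908-4036723, minus strand: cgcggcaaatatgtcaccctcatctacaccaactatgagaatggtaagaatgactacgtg
Gstp2, chr19:4040983-4041042, minus strand: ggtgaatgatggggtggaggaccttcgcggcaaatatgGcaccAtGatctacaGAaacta
These probes shared 30 of 35 overlapping bases. How much of the signal of either pi gene comes from the other was not tested, so the 4 probes may not be independent readings. The plot of every probe sets these 4 probes beside those of Gsta3 and the mu genes, including the mu probes that were lower or dark.

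**Figure D2:**
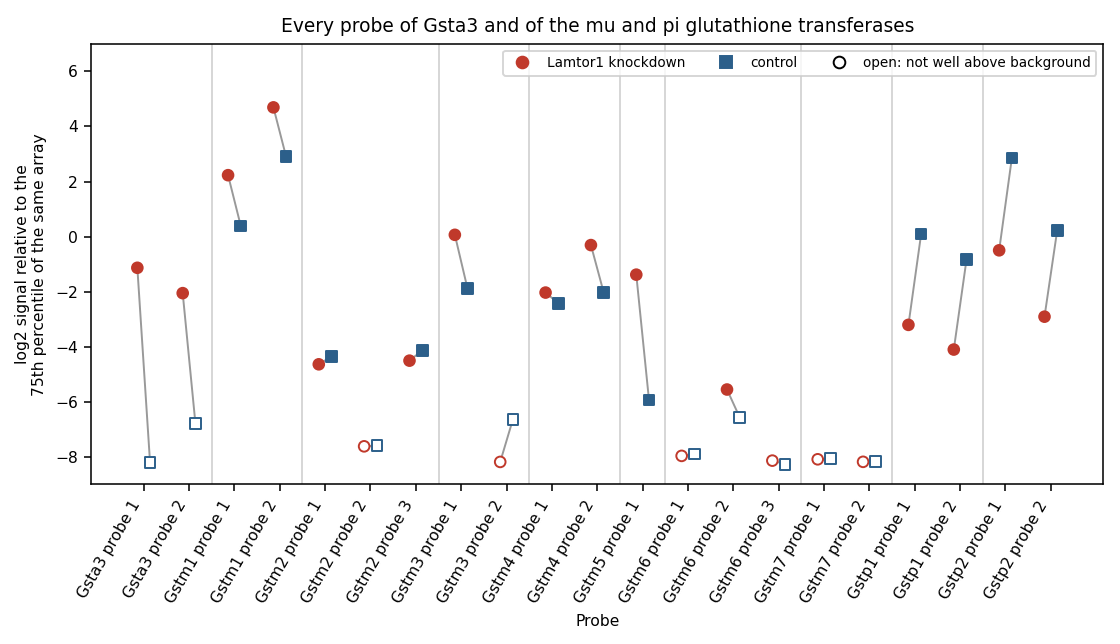
Log2 signal of each probe of Gsta3 and of the mu and pi glutathione transferases scaled to the 75th percentile of its array, with knockdown as circles on the left of each pair and control as squares on the right. Open symbols are not well above background. All 4 pi probes are lower in the knockdown, and both Gsta3, both Gstm1 and both Gstm4 probes are higher.

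The measured genes around these loci were examined for their own differences. Over the 10 measured genes on each side of the mu cluster the median log2 difference was 0.14, with a range of -2.56 to 3.34. The 20 genes around the pi pair had a median of -0.08 and a range of -2.55 to 1.33. Around Gsta3 the median was -0.02, with a range of -2.58 to 3.27. The flanking genes reach over unlike distances by their probe positions (mm9). They cover chr3:106539377-108178323 for the mu cluster, chr19:3896744-4195413 for the pi pair and chr1:16560891-30860045 for Gsta3. The stretch around Gsta3 is the widest, so many of its flanking genes are far from it. Past 2-fold were 3 higher and 3 lower of 20 genes beside the mu cluster. Beside the pi pair there were 1 higher and 3 lower of 20, and beside Gsta3 1 higher and 2 lower of 20. The shares over all measured genes were 9.0% higher and 8.35% lower.

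Promoter sequence was compared with the expression differences because NRF2 and its partners bind a known DNA element. RefSeq promoters (GRCm38.p6, 250 bases before to 50 after the start) matched 48 of the 55 members, with 63 promoters. The core of the antioxidant response element, TGACNNNGC on either strand, was found in 11 of 63 member promoters (17.5%), beside 12.4% of all 32851 promoters. These belong to G6pdx, Gclm, Gsta3, Gstm5, Gstm7, Mgst1, Nfe2l2, Pgd, Prdx1, Srxn1 and Txnrd1. Counted by gene, the core was found in 11 of 48 members (22.9%), beside 13.99% of all genes. Of the 37 measured members with a promoter, 9 held it. Of the 7 members at least 2-fold higher, 2 held it (Gsta3 and Gstm5), and of the 3 at least 2-fold lower, 0 did. These counts are too small to link the core to the direction of a difference, and such a link was not tested. The match began 121 bases before the start in Gsta3 and 42 in Gstm5. Gclm, which was lower in the knockdown, held it 134 bases before the start. The upstream 250 bases of these genes, which bear on the element, are printed with the match in capitals, as is the match to TGACTCA in Gstm5.
Gsta3, chr1:21240335-21240584, plus strand: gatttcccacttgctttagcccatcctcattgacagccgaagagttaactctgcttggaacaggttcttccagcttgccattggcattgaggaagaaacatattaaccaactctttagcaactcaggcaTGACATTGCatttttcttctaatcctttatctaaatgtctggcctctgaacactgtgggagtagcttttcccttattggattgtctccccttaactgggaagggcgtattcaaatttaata
Gstm5, chr3:107895604-107895853, plus strand: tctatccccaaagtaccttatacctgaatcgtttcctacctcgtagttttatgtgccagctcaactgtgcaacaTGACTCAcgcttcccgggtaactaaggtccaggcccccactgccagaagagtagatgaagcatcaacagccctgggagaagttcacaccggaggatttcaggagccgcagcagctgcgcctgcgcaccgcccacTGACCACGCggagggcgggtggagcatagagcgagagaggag
Gclm, chr3:122245307-122245556, plus strand: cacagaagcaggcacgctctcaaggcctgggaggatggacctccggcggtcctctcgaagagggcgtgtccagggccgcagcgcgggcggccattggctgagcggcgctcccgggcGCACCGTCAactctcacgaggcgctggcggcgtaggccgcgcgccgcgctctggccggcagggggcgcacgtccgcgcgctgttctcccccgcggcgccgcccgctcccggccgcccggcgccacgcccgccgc
A match is a description of the letters and not a measured binding site.

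The pi promoters held the motif of AP-1, TGACTCA or its reverse complement TGAGTCA. It was found in 6 of 63 member promoters (9.52%), those of Gstm5, Gstp1, Gstp2, Mgst2, Prdx1 and Srxn1, beside 5.20% of all promoters. Both Gstp1 and Gstp2 held it, 74 and 89 bases before the start, inside a run of 34 bases that the promoters share. TGACTCA followed by GC also matches the antioxidant core, which is the case for 1 match in Prdx1. In both pi promoters the letters are TGAGTCA followed by GCA, a form that the search for TGACNNNGC did not count. Whether NRF2 or AP-1 binds there was not tested. The upstream 250 bases of both pi genes (RefSeq, GRCm38.p6) are printed with the match in capitals.
Gstp1, chr19:4037913-4038162, minus strand: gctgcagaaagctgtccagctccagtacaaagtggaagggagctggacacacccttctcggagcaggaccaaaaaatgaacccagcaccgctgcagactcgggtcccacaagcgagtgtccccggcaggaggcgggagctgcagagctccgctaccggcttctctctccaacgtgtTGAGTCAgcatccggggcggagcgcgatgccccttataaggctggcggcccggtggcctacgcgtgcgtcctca
Gstp2, chr19:4042222-4042471, minus strand: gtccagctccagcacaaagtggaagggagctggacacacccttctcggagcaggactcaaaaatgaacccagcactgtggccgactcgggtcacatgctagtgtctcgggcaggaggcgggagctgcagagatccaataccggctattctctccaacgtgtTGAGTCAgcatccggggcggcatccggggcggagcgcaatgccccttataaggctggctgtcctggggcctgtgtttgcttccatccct
The E-box CACGTG, part of the element that TFEB binds, was found in 2 of 63 member promoters (3.17%), those of Gpx6 and Prdx4, beside 7.15% of all promoters. Gpx6 was not measured, and Prdx4 had a log2 difference of -0.07.

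Among the other soluble transferases, 1 of 6 measured genes passed 2-fold. Gstk1, the kappa-class enzyme of mitochondria and peroxisomes, had a level of -6.12 in the knockdown, which is not above background, and -4.55 in the control. It was at least 2.66-fold lower, or 1.39-fold with the normexp correction. The theta-class genes had log2 differences of -0.03 (Gstt1), -0.18 (Gstt2) and 0.44 (Gstt3). The Gstt1 value changed sign under some of the alternatives. Gsto1, the omega-class enzyme, differed by 0.29, and Gstz1, which also acts in tyrosine breakdown, by -0.46. Gsto2 and Gstt4 were not above background on either array.

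The membrane-bound transferases that were measured were slightly higher in the knockdown. Mgst2, which can also make leukotriene C4, had 4.35 in the knockdown and 4.06 in the control, a log2 difference of 0.29. Mgst3 differed by 0.34, and by 0.26 at its second probe. Mgst1 was not well above background on either array.

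Of the 4 measured glutathione peroxidases, 3 were higher in the knockdown and 1 of these, Gpx8, passed 2-fold. Gpx1, the main cytosolic enzyme, had a level of 5.52 in the knockdown and 4.81 in the control (1.64-fold higher). Gpx4, which reduces lipid peroxides in membranes and guards against ferroptosis, had 5.45 in the knockdown and 5.01 in the control (1.36-fold higher). Gpx8, an enzyme of the endoplasmic reticulum, had -4.29 in the knockdown and -6.44 in the control, where it was not above background. Its bound is at least 3.20-fold higher, and the normexp correction gave 1.58-fold. Gpx2 was lower, at a log2 difference of -0.25. Gpx3, Gpx5, Gpx6 and Gpx7 were not above background on either array.

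None of the 8 measured peroxiredoxin and sulfiredoxin genes passed 2-fold, and their median log2 difference was -0.03. Prdx1 and Prdx3, the main cytosolic and mitochondrial enzymes, each differed by 0.02. Prdx3 was spotted 10 times on each array, and its spots ranged in difference from -0.03 to 0.09. Prdx2 differed by -0.20, Prdx4 of the endoplasmic reticulum by -0.07 and Prdx5 by 0.36. The values of Prdx1, Prdx3 and Prdx4 were small enough to change sign between alternatives.

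Prdx6 and its related sequence were lower in the knockdown and Srxn1 was higher. Prdx6, which takes electrons from glutathione rather than thioredoxin, had 4.52 in the knockdown and 5.18 in the control (1.58-fold lower). Its 3 probes above background gave log2 differences of -0.88 to -0.66. Prdx6-rs2, a related sequence, had 0.38 in the knockdown and 1.25 in the control (1.83-fold lower). Its probe matched a Prdx6 probe at 42 of 54 overlapping bases, so the pair may not be independent readings. Srxn1, which repairs over-oxidised peroxiredoxins, had 2.89 in the knockdown and 2.10 in the control (1.73-fold higher).

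All 4 thioredoxin genes were higher in the knockdown, each by less than 2-fold. Cytosolic thioredoxin, Txn1, had 6.23 in the knockdown and 5.41 in the control (1.76-fold higher). Its reductase, Txnrd1, had 3.39 in the knockdown and 2.95 in the control (1.36-fold higher). The mitochondrial pair differed less, with log2 differences of 0.21 for Txn2 and 0.15 for Txnrd2. These directions held in all 9 alternatives.

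The members that belong to the pentose phosphate pathway showed small differences. G6pdx, the first and controlling enzyme of the pathway, differed by 0.03 in log2, and its sign changed between alternatives. Pgd, which makes NADPH in a later step, differed by -0.19, and transketolase, Tkt, by -0.27. Nqo1, a quinone reductase often used as a readout of NRF2, was not above background, with levels of -8.22 in the knockdown and -8.12 in the control. The plot of differences gives all measured members with the normexp value of the same probe beside each.

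**Figure D3:**
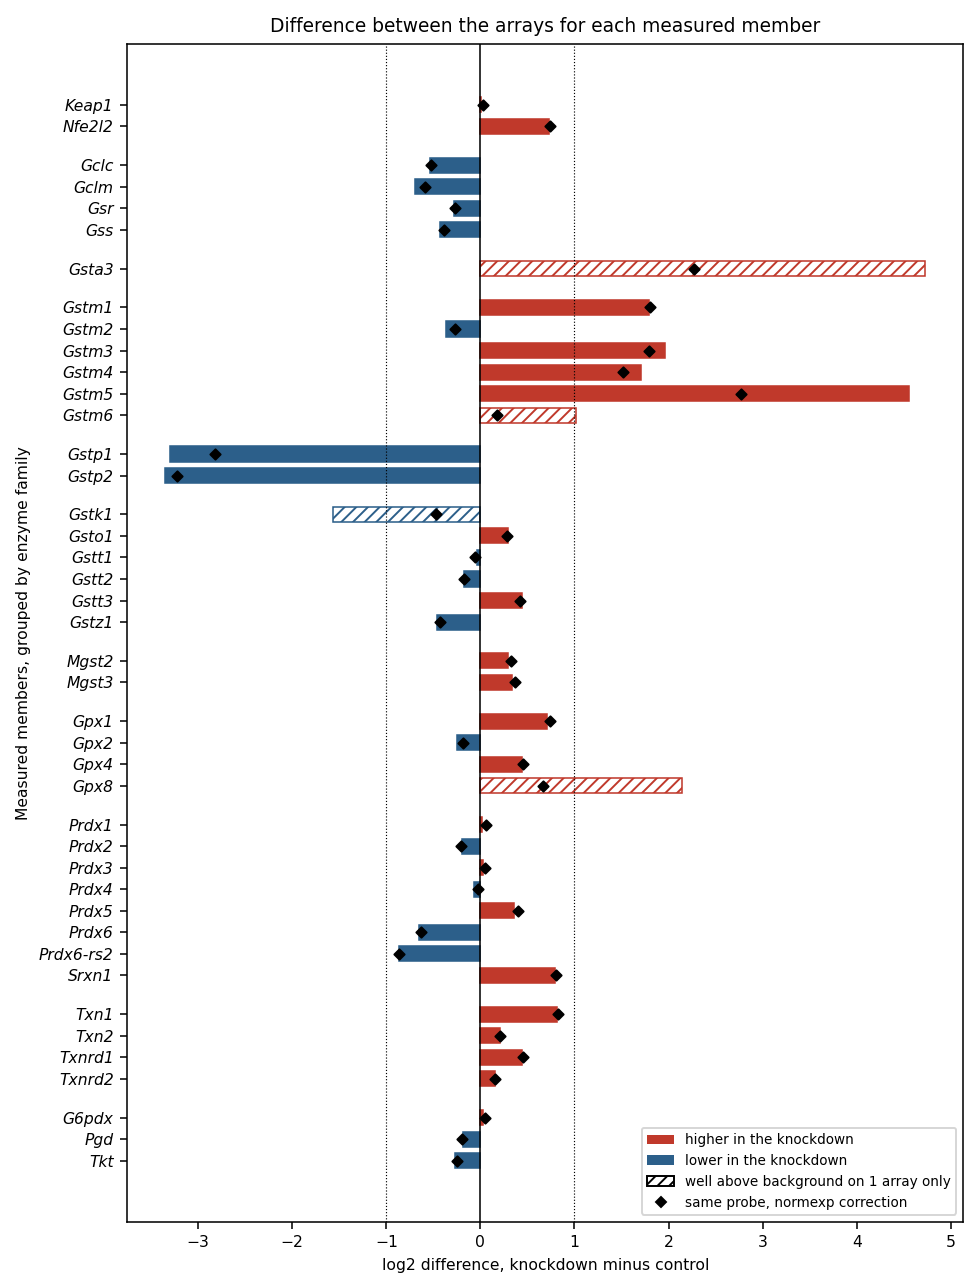
Log2 difference, knockdown minus control, of each measured member as a bar, with the value of the same probe after normexp correction as a diamond and dotted lines at 2-fold. Hatched bars are genes well above background on 1 array only. Gsta3, Gstm5, Gpx8, Gstk1 and Gstm6 shrink most with normexp, and 7 of the 10 members past 2-fold stay past it.

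Related gene lists from the same pathways were examined beside the members. Among 19 measured other NRF2 targets 4 passed 2-fold upward (21.1%) and 0 downward, around a median log2 difference of 0.29. The shares over all measured genes, for this and the following lists, are the 9.0% higher and 8.35% lower given for the members. Osgin1, an oxidative stress-induced growth inhibitor, had a level of 0.08 in the knockdown and -1.65 in the control (3.31-fold higher). Hmox1, haem oxygenase, had 4.76 in the knockdown and 3.48 in the control (2.43-fold higher). Me1, the cytosolic malic enzyme, was 2.09-fold higher. Slc7a11, the cystine importer, was 2.04-fold higher, or 1.60-fold with the normexp correction. Next in size was Abcc1, an exporter of glutathione conjugates, which was lower at a log2 difference of -0.94.

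Among 12 measured NRF2 partners and regulators, 0 were higher and 1 was lower (8.33%) past 2-fold, and their median was 0.07. Maff, a small MAF protein that pairs with NRF2, had -2.79 in the knockdown and -1.42 in the control (2.57-fold lower). Sqstm1, the autophagy receptor p62 that binds KEAP1, had 2.63 in the knockdown and 1.91 in the control (1.65-fold higher). The remaining regulators lay closer to 0.

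Genes that supply, break down or carry glutathione were mixed, with 1 higher (5.88%) and 4 lower (23.5%) of 17 measured and a median of 0.01. Chac1, which cleaves glutathione, had -2.41 in the knockdown and -0.15 in the control (4.77-fold lower). Cbs and Cth, the transsulfuration enzymes that make cysteine, were 3.25-fold and 2.14-fold lower, although Cth fell short of 2-fold with the normexp correction at 1.64-fold. Ggt1, which degrades glutathione outside the cell, was above background on the control array only and was at least 1.32-fold lower. Cndp2, a dipeptidase, was the higher gene at 2.34-fold.

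Among glutaredoxins, thioredoxin partners and methionine sulfoxide reductases, 4 were higher (25%) and 2 lower (12.5%) of 16 measured, with a median of -0.05. The higher genes included 3 methionine sulfoxide reductases, which repair oxidised methionine with electrons from thioredoxin. Msrb2 had a level of 1.59 in the knockdown and -0.14 in the control (3.32-fold higher). Msrb1 had 6.44 in the knockdown and 4.99 in the control (2.74-fold higher), and Msra had 2.44 in the knockdown and 1.14 in the control (2.46-fold higher). Txnrd3, another thioredoxin reductase, was 2.45-fold higher. Nucleoredoxin, Nxn, was 2.78-fold lower and Txnl1 2.57-fold lower, the second at 1.62-fold with the normexp correction.

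Of 16 measured pentose phosphate and other NADPH enzymes, 3 were higher (18.8%) and 1 lower (6.25%), with a median of -0.09. Aldh1l1, a folate enzyme that makes NADPH, had 1.31 in the knockdown and -1.07 in the control (5.22-fold higher). Me3 was above background on the knockdown array only, at least 1.78-fold higher, or 1.14-fold with the normexp correction. Mitochondrial Idh2 was 2.12-fold lower. Of 12 measured glyoxalases and other glutathione users, 1 was higher (8.33%) and 0 lower, with a median of 0.00. That gene was Hpgds, a sigma-class transferase that makes prostaglandin D2, at 0.69 in the knockdown and -0.42 in the control (2.16-fold higher). Next in size was Eef1g, a translation elongation factor subunit with a transferase-like domain, at a log2 difference of -0.62. The lists share Taldo1, Me1, Idh1 and Esd, and Tkt is also a member, so their counts are not independent.

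**Figure D4:**
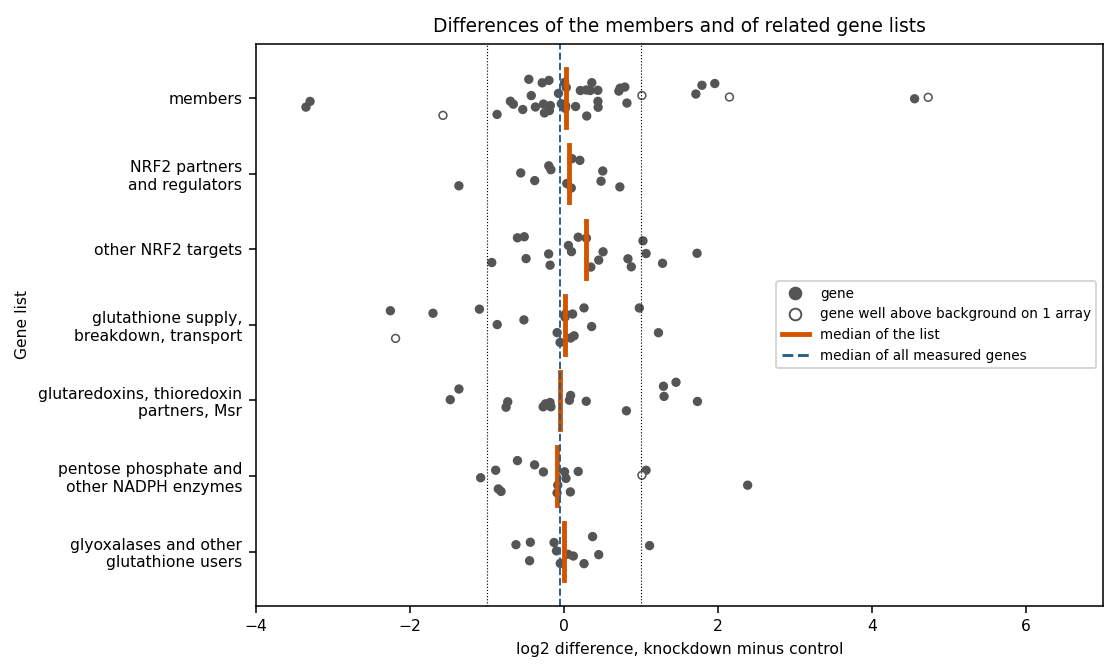
Log2 difference, knockdown minus control, of each measured gene in the members and in 6 related lists, with the median of each list as a thick line and the median of all measured genes dashed at -0.05. Open circles are genes above background on 1 array only. The members have the widest range, -3.35 to 4.73, around a median of 0.03, but number 42 genes against 12 to 19 per list. The upper end is the plain difference of Gsta3, whose control signal was not above background. The other NRF2 targets have the highest median, 0.29.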

How the data were processed

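RNA from 1 knockdown and 1 control culture was hybridised to 1-colour arrays. The deposited scanner files give the intensity of each spot, which the authors read out in version 10.7.3.1 of Agilent Feature Extraction, per the submitters' processing notes; per the file headers probe positions refer to mm9, and both arrays lie on the same slide and scan. The deposited value table holds the same intensity, rounded, at 0.995 to 1.005 times the scanner value.

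Processed intensities were put on a log2 scale and centred on each array's 75th percentile. The 297 spots flagged as outliers on either array were left out, repeated spots were averaged, and a gene took its brightest probe over both arrays. A gene above background on 1 array has a bound: its bright signal over the higher of the dim signal and the lowest signal well above background there. Of 39429 probes, 30180 were named through RefSeq. Genes were counted at 2-fold. Python 3.11.15 and, for alternatives, limma 3.58.1 in R 4.3.3 were used, and the calculation was tested on simulated data. Every member was named or counted. Of each list the genes past 2-fold and the 2 largest differences were named, and of the other NRF2 targets also Abcc1. Members and lists were chosen with earlier results of these data known. No p-value was computed.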

Additional observations from a re-analysis of the deposited data

How the results depend on the processing

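With 1 array per group the limit is the number of arrays, and depth matters as signal over background: dim genes depend on how background is handled. Members at least 2-fold higher numbered 7, and 5 to 8 in all other settings but 1: requiring signal above background on both arrays left 4. Members at least 2-fold lower numbered 2 or 3. With the normexp correction Gpx8, Gstk1 and Gstm6 no longer passed 2-fold. All 3 are dim, and the offset of 50 in that correction shrinks such folds by itself. How much of the change is due to the offset was not tested. With the median over probes, Gstm3 (0.21 in log2) and Gstm6 (0.13) did not, and with the percentile taken over probes above background Gstm6 did not. Of the 38 members with a value in all 9 other settings, 32 kept their sign and 6 did not (G6pdx, Gstt1, Keap1, Prdx1, Prdx3 and Prdx4). The other 4, above background on 1 array, kept it in the 8 settings that gave a value. Over all measured genes, 785 were higher and 610 lower with normexp, 793 higher and 693 lower when both arrays had to be above background, and 1657 higher and 1760 lower with no filter, beside 1240 higher and 1150 lower. The glutathione supply list had 3 genes past 2-fold with normexp, beside 5. It had 4 when both arrays had to be above background and 6 with median scaling. The other NRF2 targets had 3 with normexp and 3 with the percentile over probes above background, beside 4. The list of glutaredoxins and thioredoxin partners had 5 with normexp, beside 6, and the NADPH list 3 or 4. The median log2 difference was 0.12 over members and 0.0417 over all genes with median scaling, and 0.11 over members and 0.0271 over all genes with cyclic loess. Counting genes above background on 1 array by their bound, an alternative chosen after seeing the data, gave 6 higher and 3 lower members. No paired analysis was possible because each group has 1 array.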
